A study of Mus musculus with 6 samples.

Results

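Wnt6, Wnt10a, Ihh and Shh are 4 mouse genes for secreted signals, and their occupancy by Ezh2 was read from chromatin immunoprecipitation followed by sequencing (ChIP-seq) of Th1 and Th2 cells. The genes were chosen by their Ezh2 signal over input in these same libraries, as windows of the mm9 genome with an approximate position for Wnt6, Wnt10a and Ihh and a window alone for Shh. Ezh2 over input is therefore given as a description: the bin calls below use a test across the whole genome to mark bins, and nothing is concluded from them about the 4 genes. The 4 gene windows held 95 of the 2638957 bins of 1 kb on the chromosomes used. They overlapped 3 of the 2902 Ezh2 regions of at least 3 kb that were called when both Ezh2 libraries were joined.

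Naive CD4 T cells, sorted as CD44lowCD62Lhigh, came from spleens of C57BL/6 mice and were cultured for 5 days. All cultures received IL-2 at 15 ng/ml and, for the first 2 days, antibodies to the T cell receptor beta chain and to CD28, followed by 3 days without these antibodies. Th1 cultures also held IL-12 at 10 ng/ml with an antibody to IL-4, and Th2 cultures held IL-4 at 100 ng/ml with an antibody to interferon gamma. Each cell type gave 1 library with a polyclonal antibody to Ezh2, 1 with a rabbit IgG control antibody and 1 of input DNA, so no spread between replicates could be measured, and the labels give no age or sex of the mice and no pooling.

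Ezh2 is the enzyme of Polycomb repressive complex 2 that places methyl groups on histone H3 at genes held silent. Wnt proteins bind Frizzled receptors with LRP co-receptors and, in the canonical branch, stabilize beta-catenin. Hedgehog proteins bind Patched, which frees Smoothened to act on the Gli transcription factors. Genes for such developmental signals, and CpG-rich promoters in general, are well-known places of Polycomb binding in cell types that do not use them. Wnt6 is a ligand of embryonic epithelia, Wnt10a acts in the formation of teeth, hair and skin appendages, Ihh governs cartilage growth, and Shh patterns the limb and the neural tube.

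The promoters of Wnt6 and Ihh, for which the RefSeq table of GRCm38.p6 had an entry, are shown because CG dinucleotides are a sequence feature that the choice of the genes did not use. Each is the 250 bases before and the 50 after the gene's start, 5′ to 3′ on the gene's strand, with every CG in capitals. Wnt6 lies on the + strand at chr1:74771642-74771941 and Ihh on the - strand at chr1:74951623-74951922 of that build, and these positions are not comparable with the mm9 positions below. Wnt10a and Shh had no entry in the table.
Wnt6: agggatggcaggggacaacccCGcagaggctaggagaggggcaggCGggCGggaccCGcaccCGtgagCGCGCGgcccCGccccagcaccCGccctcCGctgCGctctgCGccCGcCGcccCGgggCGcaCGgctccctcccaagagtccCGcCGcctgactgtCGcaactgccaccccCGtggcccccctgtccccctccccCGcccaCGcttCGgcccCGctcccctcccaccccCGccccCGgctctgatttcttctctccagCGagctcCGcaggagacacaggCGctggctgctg
Ihh: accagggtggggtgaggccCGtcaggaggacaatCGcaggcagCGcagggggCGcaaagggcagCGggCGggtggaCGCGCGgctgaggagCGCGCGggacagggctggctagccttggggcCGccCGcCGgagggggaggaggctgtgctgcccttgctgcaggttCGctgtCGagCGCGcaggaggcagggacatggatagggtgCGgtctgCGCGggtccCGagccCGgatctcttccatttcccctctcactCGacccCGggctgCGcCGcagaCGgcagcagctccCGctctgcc

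The motif searched was CG, which reads the same on both strands. The Wnt6 promoter held 31 CG dinucleotides at a GC content of 76.7%, and 89.4% of the 32851 promoters in the table held fewer. In the Ihh promoter 30 were found at a GC content of 72.7%, with 88.3% of promoters holding fewer. The median promoter held 7, at a GC content of 52.7%. Relative to the number expected from the C and G content, the ratio was 0.744 at Wnt6 and 0.774 at Ihh, against a median of 0.384 over all promoters, and 74.5% and 77.0% of promoters lay lower. Both promoters therefore stood in the upper part of the range, more so by count than by this ratio. That range includes the promoters of non-coding genes.

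**Figure D1:**
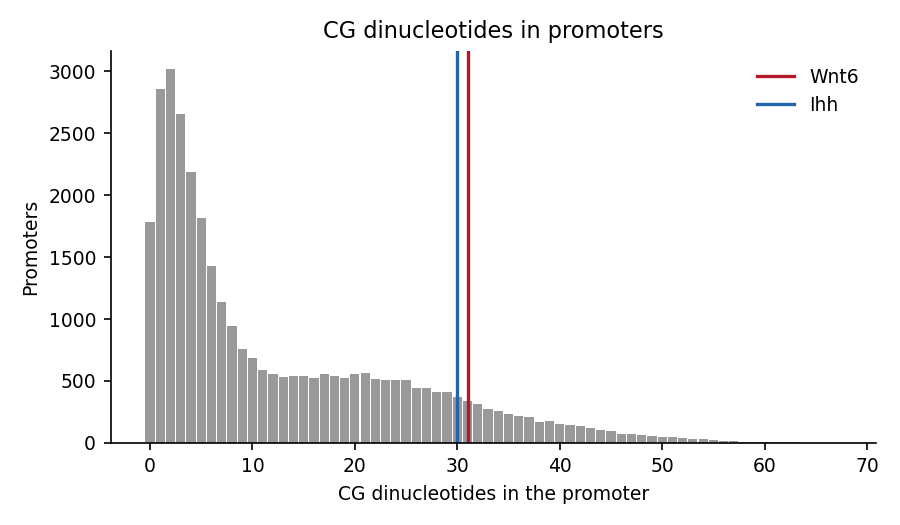
Number of promoters (y axis) by their count of CG dinucleotides (x axis) over the 32851 RefSeq promoters of GRCm38.p6, 300 bases each. Vertical lines mark Wnt6 with 31 and Ihh with 30, both far to the right of the median of 7.

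The values below are distinct positions, that is intervals counted once however many reads shared them. On chromosomes 1 to 19 and X there were 10809666 Ezh2 positions for Th1 and 14963599 for Th2, 15578675 and 12862628 for the inputs, and 9326717 for the Th1 control antibody. The Th2 control antibody file ended inside chromosome 17 and held 8 of these chromosomes whole, with 5053626 positions, so that it covered Shh on chromosome 5 but none of the genes on chromosome 1. Reads per position came to 2.25 (Th1) and 2.04 (Th2) with Ezh2, against 1.30 (Th1) and 1.77 (Th2) with input. The names of the deposited files carry different dates and machine labels for the 2 Ezh2 libraries, and neither shares its date with an input, so cell type and sequencing run cannot be told apart. Because each library is a bulk culture, more cells with Ezh2 at a site and more Ezh2 per cell cannot be told apart either. All intervals are 95% exact (Clopper-Pearson) and cover counting error only.

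No gene annotation of mm9 was used, so the exon, intron or promoter in which a bin lies was not determined. In the RefSeq gene table of GRCm38.p6, which served for names and neighbours only, the order of protein-coding and miRNA genes is Wnt6, Wnt10a, Cdk5r2, Fev, Cryba2, Mir375, Cfap65 and Ihh. The windows were 20 kb wide for Wnt6, Wnt10a and Ihh, 10 kb on each side of the position given, and 35 kb for Shh.

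At Wnt6, from 74808001 to 74828000 on chromosome 1, the Th1 libraries held 487 Ezh2 and 160 input positions, and the Th2 libraries held 742 Ezh2 and 141 input positions. Scaled by library totals, Ezh2 was 4.39-fold (95% interval 3.66 to 5.28) over input in Th1, and 4.52-fold (3.77 to 5.46) in Th2. The Th1 control antibody, with 82 positions, lay at 0.856-fold over the same input (0.648 to 1.12). In this window both Ezh2 libraries were thus well above their input while the control antibody was not.

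The Wnt6 signal was a narrow rise on a lower shoulder. In the bins from 74816001 to 74820000 the Th1 Ezh2 library held 34, 50, 78 and 30 positions per kb, against 7, 7, 11 and 7 in the input. Over the same bins the Th2 Ezh2 library held 60, 106, 92 and 55, against 7, 8, 3 and 13 in the input. The highest bins of the 2 cell types were neighbours, 74818001 to 74819000 in Th1 and 74817001 to 74818000 in Th2. The best run of 3 bins was the same in both, from 74816001 to 74819000, and held 33.3% of the window's Ezh2 positions in Th1 (29.1 to 37.6) and 34.8% in Th2 (31.3 to 38.3). At these highest bins Ezh2 was 10.2-fold over input in Th1 (5.41 to 21.3), and in Th2 11.4-fold (5.57 to 27.1). At least as many positions were found in 682 bins of the whole Th1 Ezh2 library, and in 1324 bins of that of Th2.

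Wnt10a, from 74829001 to 74849000, had 634 Ezh2 and 173 input positions in Th1, and 877 Ezh2 and 143 input positions in Th2. The fold over input was 5.28 in Th1 (4.46 to 6.29) and 5.27 in Th2 (4.41 to 6.34), with the Th1 control antibody at 0.937 (0.723 to 1.21). The folds of both cell types were closer at Wnt10a than at any of the other 3 genes.

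The shape at Wnt10a was a plateau. Of its 20 bins, 12 in Th1 and 13 in Th2 held at least 0.5 of the summit's positions, against 2 and 4 of 20 at Wnt6. Its summit bins held 57 positions in Th1, from 74840001 to 74841000, and 74 in Th2, from 74838001 to 74839000, and these were 1.87 and 1.74 times the median bin of the window. The lowest bin of the window still held 16 Ezh2 positions in Th1 and 27 in Th2, where the mean over all bins used was 4.10 in Th1 and 5.67 in Th2. These counts are not set against input, which was uneven across the window. In Th1 the bins from 74833001 to 74834000 and from 74843001 to 74844000 held 16 and 17 Ezh2 positions and as many input positions. The fold of the Th2 summit rested on 2 input positions and is not given.

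Wnt6 and Wnt10a lay in a single Ezh2 region of 47 kb, from 74811001 to 74858000, when both Ezh2 libraries were joined. It held 1418 Ezh2 and 419 input positions in Th1 (4.88-fold, 4.37 to 5.45) and 2003 Ezh2 and 342 input positions in Th2 (5.03-fold, 4.49 to 5.66), with the Th1 control antibody at 0.785-fold (0.660 to 0.932). By length it was number 12 of 2902 regions, whose median was 5 kb. By fold it stood further down, at number 686 in Th1 and 1169 in Th2. Within it the lowest bin was the same in both cell types, 74826001 to 74827000, where Th1 had 13 Ezh2 positions and Th2 had 12. This bin lay inside the Wnt6 window, between the positions given for Wnt6 and Wnt10a.

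The region ran on past the Wnt10a window. In its last 9 kb, from 74849001 to 74858000, Ezh2 was 4.35-fold (3.47 to 5.50) over input in Th1, and 4.51-fold (3.55 to 5.81) in Th2. The highest bin of this stretch held 62 positions in Th1, from 74850001 to 74851000, and 71 in Th2, from 74852001 to 74853000. In Th1 that was more than the 57 of the highest bin inside the Wnt10a window.

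**Figure D2:**
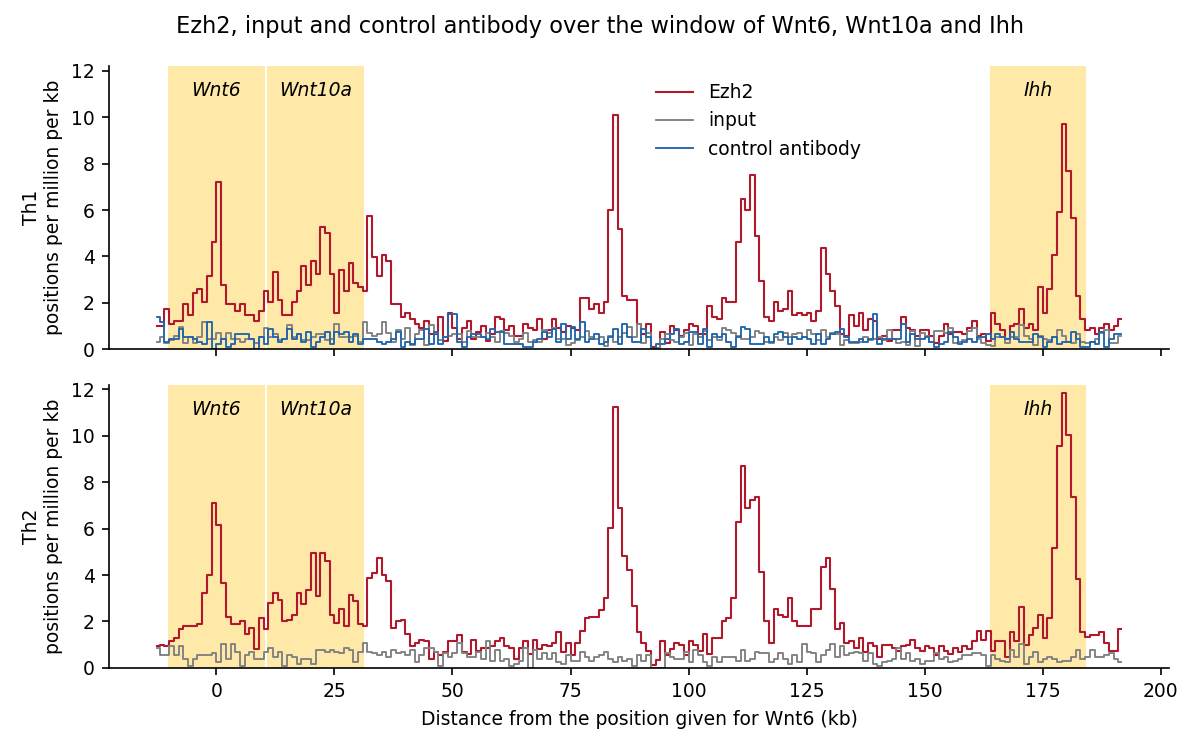
Distinct positions per 1 kb bin, scaled to library size as the axis states, (y axis) against the distance from the position given for Wnt6 in kb (x axis), in Th1 (upper) and Th2 (lower). Red lines are Ezh2, grey lines input and, in Th1, the blue line the control antibody, with the 20 kb gene windows shaded. Ezh2 rises to sharp peaks at Wnt6 and Ihh and to a plateau at Wnt10a, and the other peaks lie between the Wnt10a and Ihh windows.

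At Ihh, from 74982001 to 75002000 on chromosome 1, there were 586 Ezh2 and 149 input positions in Th1, and 1015 Ezh2 and 116 input positions in Th2. Ezh2 was 5.67-fold (4.73 to 6.83) over input in Th1, and 7.52-fold (6.20 to 9.20) in Th2. The Th1 control antibody, with 79 positions, was at 0.886-fold (0.665 to 1.17). Over these windows the Ihh folds were the highest among the 4 genes in each cell type, although their intervals overlapped those of Wnt10a in both. Within 5 kb of the position given, which leaves out the summit, Ihh was at 4.09-fold in Th1, the lowest of the 4 genes, and at 6.27-fold in Th2.

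The summit of Ihh fell in the same bin in both cell types, 74997001 to 74998000, with 105 Ezh2 and 9 input positions in Th1 and 177 Ezh2 and 4 input positions in Th2. The Th1 control antibody held 3 positions there. In the Th1 Ezh2 library 229 of 2638957 bins held at least as many positions as this one, and in the Th2 Ezh2 library 160 did. The best run of 3 bins, 74996001 to 74999000, held 43.0% of the window's Ezh2 positions in Th1 (39.0 to 47.1) and 46.3% in Th2 (43.2 to 49.4). Those shares were above the 23.0% in Th1 (19.8 to 26.5) and 22.1% in Th2 (19.4 to 25.02) of the best run at Wnt10a. The position given for Ihh is 74992000, so the summit lay 5 to 6 kb from it. That position is approximate, so this distance does not show that the summit lay away from the gene's start.

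The Ezh2 region of Ihh spanned 12 kb, from 74991001 to 75003000. It held 488 Ezh2 and 83 input positions in Th1 (8.47-fold, 6.70 to 10.8) and 868 Ezh2 and 66 input positions in Th2 (11.3-fold, 8.80 to 14.7). Ranked by fold among the 2902 regions it was number 63 in Th1 and 60 in Th2. The 565 regions that spanned 10 kb or more had median folds of 5.06 (Th1) and 6.50 (Th2).

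At Shh, from 28770001 to 28805000 on chromosome 5, the 35 kb window held 492 Ezh2 and 223 input positions in Th1, and 975 Ezh2 and 200 input positions in Th2. Ezh2 was 3.18-fold (2.71 to 3.74) over input in Th1, and 4.19-fold (3.60 to 4.90) in Th2. The control antibody was at 0.816-fold (0.643 to 1.03) in Th1, and 1.04-fold (0.849 to 1.27) in Th2, the Th2 value scaled on the 8 chromosomes that its file held. This is the 1 gene of the 4 at which the control antibody could be read in both cell types, and in neither did its interval lie above 1. The first 4 bins of the window held at most 1 position each over all 6 libraries.

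**Figure D3:**
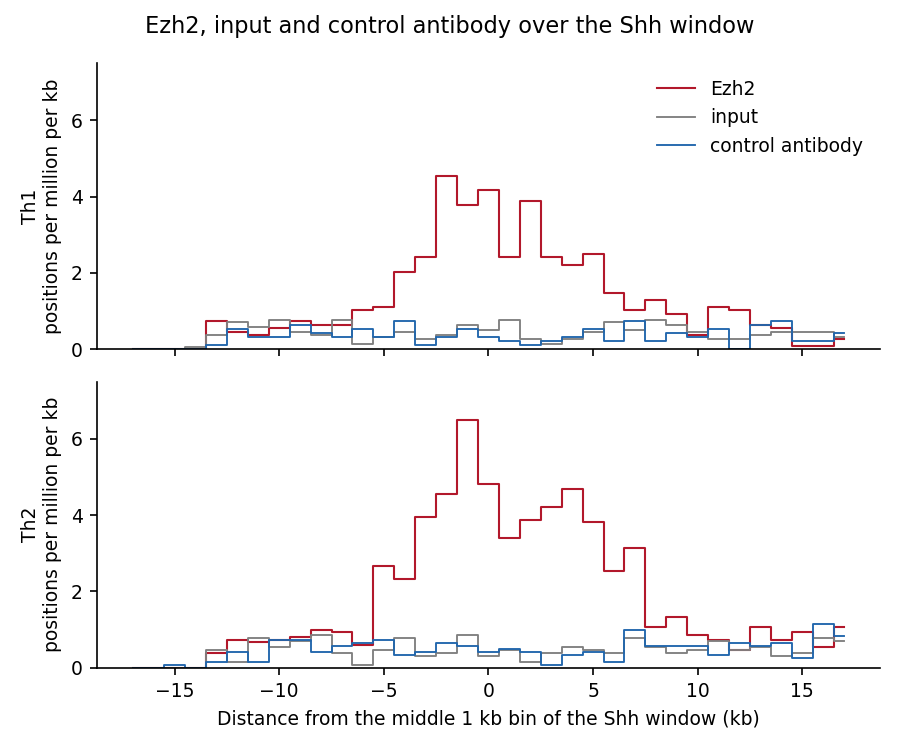
Distinct positions per 1 kb bin, scaled to library size as the axis states, (y axis) against the distance from the middle bin of the Shh window in kb (x axis), in Th1 (upper) and Th2 (lower). Red lines are Ezh2, grey lines input and blue lines the control antibody, whose Th2 total was scaled up from 8 chromosomes by the share of the Th2 input on them. Ezh2 forms a broad hump with its highest bin at 49 positions in Th1 and 97 in Th2.

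Ezh2 at Shh formed a broad hump. The highest bin held 49 Ezh2 and 6 input positions in Th1, from 28785001 to 28786000, and 97 Ezh2 and 11 input positions in Th2, from 28786001 to 28787000. At least 0.5 of the summit was reached by 8 bins in Th1 and 9 in Th2. The best run of 3 bins was again shared, 28785001 to 28788000, with 27.4% of the window's Ezh2 positions in Th1 (23.5 to 31.6) and 24.3% in Th2 (21.6 to 27.1). These shares are of a 35 kb window and cannot be compared directly with those of the 20 kb windows of the other genes.

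The Ezh2 region of Shh was 14 kb long, from 28781001 to 28795000, with 378 Ezh2 and 90 input positions in Th1 (6.05-fold, 4.80 to 7.70) and 764 Ezh2 and 82 input positions in Th2 (8.01-fold, 6.37 to 10.2). By fold it was number 318 in Th1 and 297 in Th2. Outside it the window was lower: from 28770001 to 28781000 Ezh2 was 1.01-fold (0.676 to 1.51) in Th1, and 1.36-fold (0.941 to 1.98) in Th2. From 28795001 to 28805000 it was 1.44-fold (1.02 to 2.04) in Th1, and 1.67-fold (1.24 to 2.27) in Th2. Both flanks count in the fold of the whole 35 kb window. They are what the calling left outside the region, so their lower folds follow in part from it.

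By whole windows, 35 kb at Shh and 20 kb at the others, the order of the folds was Ihh, Wnt10a, Wnt6 and Shh in both cell types. The order depended on the window. With 5 kb on each side, at Shh around the middle of its window, it was Shh at 7.28, Wnt10a at 5.85, Wnt6 at 5.43 and Ihh at 4.09 in Th1. In Th2 it was then Shh at 8.78, Wnt10a at 6.31, Ihh at 6.27 and Wnt6 at 5.64. The place of Ihh in these narrower windows rests on its approximate position, since its summit lay outside them. With the whole windows in Th1 each gene's interval overlapped that of the next in this order, with the Wnt6 interval starting at 3.66 and the Shh interval ending at 3.74. In Th2 the neighbours overlapped as well, with the Ihh interval starting at 6.20 and the Wnt10a interval ending at 6.34. The ends of the order did not overlap: Ihh and Shh were at 5.67 and 3.18 in Th1 and at 7.52 and 4.19 in Th2. Over called regions the order was Ihh, Shh and the joint region of Wnt6 and Wnt10a, in both cell types. There the neighbours overlapped in Th1, while in Th2 the Shh interval, from 6.37, lay above that of Wnt6 and Wnt10a, up to 5.66.

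**Figure D4:**
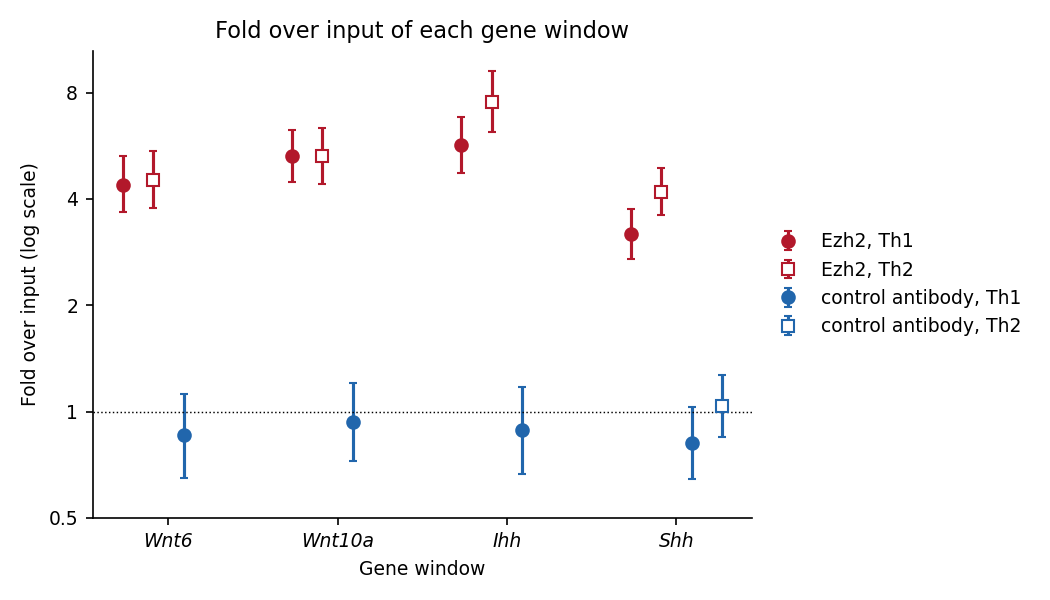
Fold over input on a log scale (y axis) for each gene window (x axis), for Ezh2 (red) and the control antibody (blue) in Th1 (filled circles) and Th2 (open squares), with 95% exact intervals of counting error and 1 library per point. Ezh2 lies between 3.18 and 7.52, and the control antibody between 0.816 and 1.04.

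A 1 kb bin was called where the one-sided exact binomial test against input had a Benjamini-Hochberg adjusted p below 0.05 and the fold was at least 2. Among the 4 genes 44 of 87 tested bins were called in Th1 and 47 of 91 in Th2, with 37 called in both. Over all bins tested, 0.992% were called in Th1 and 1.21% in Th2. As this contrast chose the genes, nothing is read from that difference. The control antibody gave 0 called bins in the gene windows, in Th1 at all 4 genes and in Th2 at Shh, where 0.00151% of all tested bins were called with it in Th1 and 0% in Th2. Wnt10a had the most called bins, 17 of 20 in Th1 and 16 of 20 in Th2. At Wnt6 there were 9 and 11 of 20, at Ihh 9 of 19 tested and 8 of 20, and at Shh 9 of 28 tested and 12 of 31.

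The bin profiles of both cell types resembled each other at every gene. Across the bins of a window, which are neighbours in the same 2 libraries and not replicates, Spearman's rho between Th1 and Th2 Ezh2 positions was 0.878 at Wnt6, 0.842 at Ihh and 0.836 at Shh, over 20, 20 and 35 bins. At Wnt10a, where the bins differ least among themselves, it was 0.667 over 20 bins. Summits were 0 to 2 bins apart, with the largest gap at Wnt10a. The 35 bins of Shh include the 4 with at most 1 position over all libraries. As the windows were chosen by Ezh2 in these libraries, and rho was not computed for other windows, nothing is concluded from this likeness.

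Reads per Ezh2 position in the gene windows lay between 2.04 and 2.10 in Th1 and between 1.87 and 1.93 in Th2, below the 2.25 and 2.04 of the whole libraries. The 4 genes thus did not have more reads per position than the rest of the library.

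Whether Th1 and Th2 differed at these genes was tested with the two-sided exact binomial test of Ezh2 positions over all 2902 regions, with Benjamini-Hochberg adjustment over all of them. The expected ratio was the median over regions, which lay at 0.853 times the ratio of the library totals, a shift of -0.23 on the log2 scale, so each ratio below is relative to that shift. With 1 library per group the test compares these libraries and not the cell types. Of all regions, 5.31% passed with more Ezh2 in Th1 and 7.13% with more in Th2, that is 154 and 207 regions. Scaled by library totals it was 55 regions with more in Th1 and 844 with more in Th2.

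The region of Wnt6 and Wnt10a, where Th1 had 1418 Ezh2 positions and Th2 had 2003, showed a Th1 to Th2 ratio of 1.15 relative to the median (95% interval 1.07 to 1.23, exact test, adjusted p = 0.00174). Its direction depended on the scaling, since with library totals the ratio was 0.980 (exact test, adjusted p = 0.712). By window, relative to the same median, the ratio was 1.06 at Wnt6 (0.948 to 1.20) and 1.17 at Wnt10a (1.06 to 1.30). The interval of Wnt6 included 1, that of Wnt10a did not, and whether the 2 windows differ was not tested.

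Shh went the other way. With 378 Ezh2 positions in its region for Th1 and 764 for Th2, the ratio was 0.803 (0.708 to 0.909; adjusted p = 0.00710 by the exact test), and with library totals the ratio was 0.685. The Ihh region, where Th1 had 488 and Th2 had 868, was at 0.912 (0.815 to 1.02; adjusted p = 0.312 by the exact test). That interval includes 1 and overlaps the one of Shh, and with library totals its ratio of 0.778 passed (exact test, adjusted p = 8.85e-05).

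Both differences that passed rested on Ezh2 positions alone. The input positions of both cell types were then entered in a conditional exact test over the same 2902 regions. Scaled by library totals alone, the Th1 fold was below the Th2 fold in all 3 regions, with 4.88 against 5.03 at Wnt6 and Wnt10a. The test took the Th1 to Th2 ratio of folds relative to its median over all regions. By the conditional exact test this relative ratio was 1.18 at Wnt6 and Wnt10a (exact test, adjusted p = 0.422). It was 0.913 at Ihh (exact test, adjusted p = 0.960) and 0.920 at Shh (exact test, adjusted p = 0.935). None of the 3 passed this test, which 14 of 2902 regions did.

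**Figure D5:**
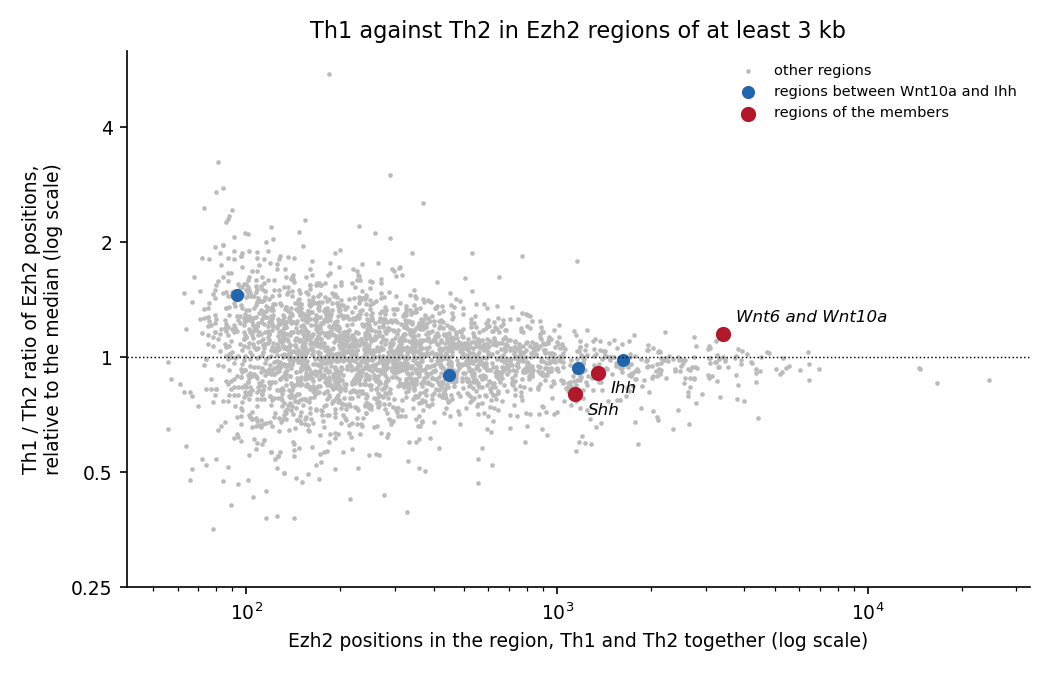
Th1 to Th2 ratio of Ezh2 positions relative to the median, on a log scale (y axis), against the Ezh2 positions of a region in both cell types together, on a log scale (x axis), for 2902 regions of at least 3 kb. Red points are the regions of Wnt6 and Wnt10a at 1.15, Ihh at 0.912 and Shh at 0.803, blue points the 4 regions between Wnt10a and Ihh, and grey points the others.

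Between the Wnt10a and Ihh windows lay 4 more Ezh2 regions of at least 3 kb, which were not assigned to genes. The region from 74895001 to 74907000 was 6.11-fold (4.91 to 7.66) over input in Th1, and 9.79-fold (7.59 to 12.8) in Th2. Its highest bin, 74902001 to 74903000, held 109 Ezh2 positions in Th1 and 168 in Th2, beside 105 and 177 at the Ihh summit. The region from 74922001 to 74942000 was 5.06-fold (4.28 to 6.03) in Th1, and 7.997-fold (6.56 to 9.84) in Th2. A region of 6 kb from 74944001 to 74950000 was at 3.98-fold (2.93 to 5.47) in Th1, and 5.27-fold (3.86 to 7.33) in Th2. The smallest, 74952001 to 74955000, was 4.88-fold (2.58 to 9.87) in Th1 on 13 input positions, and 1.68-fold (1.02 to 2.85) in Th2. Its adjusted p for Th1 against Th2 was 0.247, and those of the other 3 were between 0.576 and 0.904, by the exact test.

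The 5 stretches between the regions from Wnt6 to Ihh had folds of 1.47 to 2.26 in Th1, below each of these regions, and of 1.85 to 2.38 in Th2. In Th2 the smallest region, at 1.68-fold, was below all 5 stretches, and the other regions were above them. The regions were called for Ezh2 over input, so lower folds between them follow in part from the calling. From 74858001 to 74895000, between the region of Wnt6 and Wnt10a and the next, Ezh2 was 1.70-fold (1.46 to 1.99) over input in Th1, and 1.85-fold (1.59 to 2.17) in Th2. From 74955001 to 74991000, just before the Ihh region, it was 1.70-fold (1.45 to 2.00) in Th1, and 2.38-fold (2.02 to 2.82) in Th2. The interval of the stretch from 74950001 to 74952000 included 1 in Th1 (0.823 to 5.52), and those of the other 4 stretches lay above 1 in both cell types.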

How the data were processed

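The authors deposited, for each library, genomic intervals without strand and how many reads shared each, a count; these counts are not normalized. Nearly all intervals were 119 bases long, against 36 sequencing cycles per the labels' protocols. The submitters' processing notes name CASAVA and mm9, while alignment settings, extension and filters are not given in the sources used here.

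Each interval was counted once, at its midpoint, in 1 kb bins of chromosomes 1 to 19 and X, and scaled by the positions there. Bins with under 10 positions over Ezh2 and input were not tested. For calling, 0.5 was added to both counts of a fold, and called bins at most 1 bin apart were joined. The tests ran across all bins or regions, and their code was tested on simulated data. Python 3.11.15, scipy 1.17.1, numpy 2.4.6 and pandas 2.3.3 were used.

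The members, windows and lists were chosen with earlier results of these data known. All 4 genes are named whatever their value, with every region of at least 3 kb in both windows and each gene's highest bin. Other Wnt and hedgehog genes were not placed on mm9, so their Ezh2 was not analysed here, nor were the genes most like the members. Labelled cell types were not checked against markers, since genes were not placed. Alternatives were all deposited reads, background scaling, other backgrounds, other windows and bins, stricter or no limits, equal depth and, for Th1 against Th2, other expected ratios, the inputs and tiled windows.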

Additional observations from a re-analysis of the deposited data

How the results depend on the processing

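Leaving out the sparse bins at Shh was chosen after seeing the data, and gave 3.19 in Th1 and 4.19 in Th2. No paired analysis was possible because only 1 library stood in each group, and no library could be left out. The count of called bins over the 4 genes stayed within 1.5 times the main count in all 15 alternatives, from 30 to 59 in Th1 and from 33 to 67 in Th2. In each cell type 1 of these counted 2 kb bins, a larger unit, with 32 in Th1 and 33 in Th2. Over all tested bins the share called ran from 0.463% to 4% in Th1 and from 0.604% to 5.83% in Th2. The counts of 59 (background scaling) and 67 (all deposited reads) came with the highest of these shares. Nothing is read from the counts about the genes. Of the 47 alternative folds, 33 stayed inside the counting interval and none went below 1. Background scaling takes the totals from 10 kb bins below the median ratio, which by construction multiplied every fold by 1.43 in Th1 and 1.41 in Th2. It gave, in Th1 and Th2, 6.25 and 6.37 at Wnt6, 7.53 and 7.42 at Wnt10a, 8.08 and 10.6 at Ihh, and 4.53 and 5.90 at Shh. Windows of 5 kb on each side gave 5.43 and 5.64 at Wnt6, 4.09 at Ihh in Th1, where the summit then lay outside the window, and 7.28 and 8.78 at Shh, around the middle of its window, so that Shh came first in both cell types. With the control antibody as background Shh was 3.89-fold in Th1. That background could not be had for Th2 on chromosome 1.

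Th1 against Th2 depended more on the setting. At Wnt6 and Wnt10a the ratio of 1.15 turned to 0.980 with library totals and to 0.914 for the Wnt6 window against tiled windows (exact test, adjusted p = 0.543). It no longer passed with the inputs, at 1.18 relative to the median ratio of folds. Nor did it pass for the Wnt10a window against tiled windows, at 1.01. Ihh passed with all deposited reads at 0.898, with library totals at 0.778, with regions from 2 kb bins at 0.866, where its region was 30 kb long, and against tiled windows at 0.804. Shh no longer passed with the inputs, at 0.920 relative to the median ratio of folds. It passed under the other 5 alternatives, from 0.685 to 0.820. The expected ratio from tiled windows was 0.994 (20 kb) and 0.993 (35 kb) times the ratio of library totals. Tiled windows and library totals were therefore nearly the same scaling, applied to windows and to regions. Over all regions, library totals moved the calls to 55 with more Ezh2 in Th1 and 844 with more in Th2, against 154 and 207 with the median. The cause was not tested. Depth limits single bins most, where the input held as few as 2 positions at a summit.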

Other observations

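In the RefSeq promoters of GRCm38.p6, CG dinucleotides were counted for genes of both pathways, from lists chosen with earlier results known and holding Wnt6 and Ihh themselves. Of the 19 Wnt ligand genes 15 had an entry, and their 18 promoters held a median of 28 CG, against 7 over all promoters. The 2 matched of 3 hedgehog ligand genes, Ihh being 1 of them, had a median of 21 over 2 promoters. The 6 matched of 8 hedgehog receptor, transducer and target genes, which include Patched, Smoothened and Gli genes, held a median of 29. For Wnt receptors, transducers and targets, such as the Frizzled genes and Axin2, the median was 31 over 15 promoters of 10 matched genes of 16. The table of all promoters also holds those of non-coding genes. Ezh2 was not read at these promoters.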
